A study of Mus musculus with 24 samples.

Results

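The genotype by hyperoxia interaction in the lung compares, gene by gene, how far oxygen moved a transcript in GSDMD-KO mice with how far it did so in WT littermates. It was computed on the log2 scale as (KO-O2 minus KO-RA) minus (WT-O2 minus WT-RA). A value above 0 means that hyperoxia moved the transcript further up, or less far down, in GSDMD-KO lungs than in WT lungs. All 12 lung samples of the series entered it, of 24 samples in all, with 3 mice in each of 4 groups and 16819 of 36109 listed genes tested. WT-RA and WT-O2 were wild-type C57/B6 pups, KO-RA and KO-O2 were littermates of the same strain with a global deletion of gasdermin D, a 38-base deletion in exon 5 of Gsdmd made with CRISPR, bred from heterozygous parents. The RA groups were kept in room air (21% oxygen) and the O2 groups in 85% oxygen from postnatal day 1 to day 14, and whole lungs were taken at day 15. The knockout is global, so every cell type of the lung and the rest of the body carried the deletion. The litter of each mouse is not given. Each sample is 1 mouse.

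Gasdermin D is the executioner of pyroptosis, an inflammatory form of cell death. Inflammatory caspases, activated by inflammasomes, cleave it, and the freed amino-terminal part forms pores in the plasma membrane through which interleukin-1 beta and interleukin-18 leave the cell. Newborn rodents kept in high oxygen develop inflamed lungs with few, large alveoli and sparse capillaries and serve as a model of bronchopulmonary dysplasia, the chronic lung disease of preterm infants. An interaction asks whether the loss of the gene alters the response to oxygen itself, which a difference between genotypes within one oxygen level does not show.

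Gsdmd was looked up to check the genotype labels. Its level, in CPM (counts scaled to a common library size), was 41.4, 42.3 and 40.6 CPM in WT-RA lungs, 32.2, 36.4 and 34.8 in WT-O2, 24.8, 24.5 and 22.6 in KO-RA and 11.7, 13.1 and 16.3 in KO-O2, so every GSDMD-KO lung lay below every WT lung at the same oxygen level. The genotype difference in log2 was -0.79 in room air and -1.33 in hyperoxia, and its interaction was -0.54 (SE 0.15, edgeR adjusted p = 0.42). The transcript was thus lower but not absent in GSDMD-KO lungs. By qRT-PCR the paper found it barely detectable in GSDMD-KO lungs and raised by hyperoxia in WT, where it was lower here. Library totals ran from 28763661 to 29604254 estimated counts. Sftpc, the surfactant protein C gene of alveolar type 2 cells, lay between 8030 and 15020 CPM of the library total in all 12 lungs. Other tissues left traces in single libraries. The summed level of the 12 listed liver genes was 184.7 CPM in KO-O2 mouse GSD061 and at most 45.57 CPM in the others. All 3 KO-O2 mice expressed Y-linked genes, as did 2 KO-RA mice and 1 WT-O2 mouse but 0 WT-RA mice, so sex was uneven over the groups. The part of sex and of these traces in the results was not tested gene by gene, beyond the fits with a sex term given below.

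Hyperoxia changed a similar number of genes in both genotypes, at a fold change of at least 2 and an adjusted p under 0.1 by edgeR's quasi-likelihood test. In WT lungs 1952 genes were called (11.6% of those tested), 847 higher and 1105 lower. In GSDMD-KO lungs 1783 were called (10.6%), 768 higher and 1015 lower, and 1318 genes were called in both. Of the 1952 genes called in WT, 1383 (70.9%) had a smaller response in GSDMD-KO. Responses were signed by the direction of the call, so the 66 genes with an opposite response in GSDMD-KO counted as smaller. The median response was 1.49 in WT and 1.26 in GSDMD-KO on the log2 scale. Choosing genes by a large response in 1 genotype raises the share with a smaller response in the other by itself. The reverse selection was therefore made as well. Of the 1783 genes called in GSDMD-KO, 1033 (57.9%) had a smaller response in WT, with medians of 1.47 and 1.41. Among the 1318 genes called in both genotypes, 750 (56.9%) had the smaller response in GSDMD-KO. With the mean log2 level of the erythroid genes as a covariate, the first share was 83.2% and the second 43.8%. That covariate itself differed between the groups, so it also takes up part of the responses compared here.

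**Figure D1:**
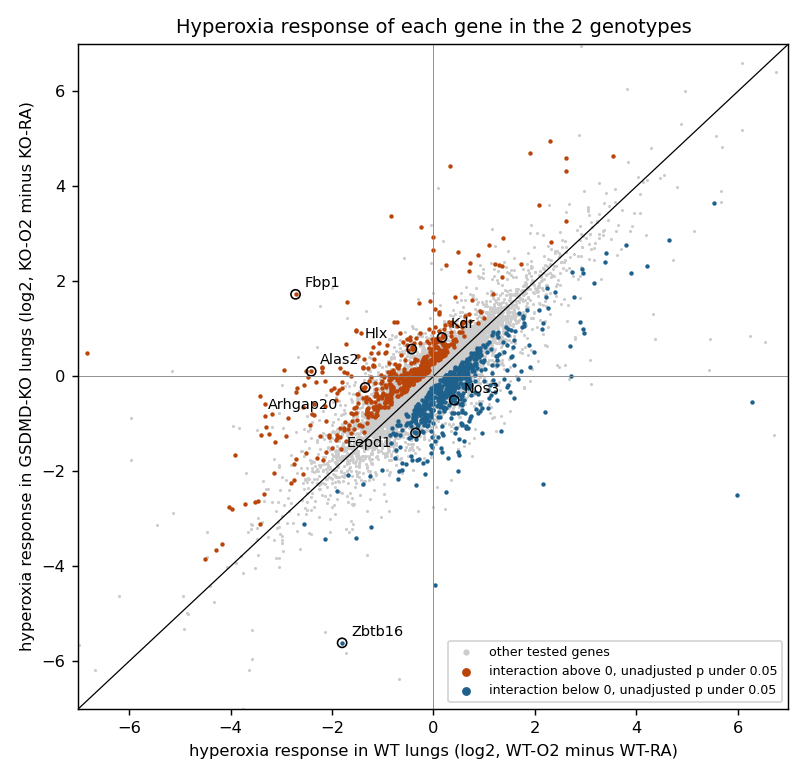
Hyperoxia response of each tested gene in WT lungs (horizontal axis, log2) and in GSDMD-KO lungs (vertical axis, log2), with the line of equal response. Coloured points are the 560 genes above and the 570 genes below 0 with an unadjusted interaction p under 0.05, circles mark 8 genes named in the text, and 19 genes lie outside the axes. Fbp1 stands in the upper left, lower after hyperoxia in WT and higher in GSDMD-KO.

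The interaction itself was called at an adjusted p under 0.1 for 1 of 16819 genes (0.00595%), Fbp1. At an unadjusted p under 0.05 there were 1130 genes, 560 above 0 (3.33%) and 570 below 0 (3.39%), and the smallest adjusted p after that of Fbp1 was 0.19. The count depended on the test. DESeq2's Wald test called 110 genes (0.757% of the 14532 genes given an adjusted p), 61 above and 49 below 0, all with the same sign and an unadjusted p under 0.05 in edgeR. Limma-voom called 0, with 1126 genes at an unadjusted p under 0.05. It also depended on single mice. Without WT-RA mouse GSD400 edgeR called 45 genes, without KO-O2 mouse GSD493 15, and without KO-RA mouse GSD496 or GSD497 or KO-O2 mouse GSD061 0, with 851, 1076 and 914 genes at an unadjusted p under 0.05. Values below for any gene other than Fbp1 therefore describe an interaction that edgeR did not call.

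Fbp1 (ENSMUSG00000069805) encodes fructose-1,6-bisphosphatase, an enzyme of gluconeogenesis. Its level was 3.56, 5.01 and 2.92 CPM in WT-RA lungs, 0.648, 0.379 and 0.709 in WT-O2, 0.547, 0.207 and 0.339 in KO-RA and 1.82, 1.24 and 0.602 in KO-O2. All 3 WT-RA lungs lay above the other 9. The highest estimated count in any KO-RA lung was 16, so the low groups rest on few reads. The liver sum was 184.7 CPM in GSD061, the highest KO-O2 lung for Fbp1, and 6.182 and 6.212 CPM in GSD097 and GSD493. It was 20.33 to 23.64 CPM in WT-RA and 32.23 to 45.57 CPM in KO-RA. Its part in the Fbp1 values was not tested. Hyperoxia lowered Fbp1 in WT by 2.72 on the log2 scale (log2 fold change -2.72, adjusted p = 8.7e-05) and raised it in GSDMD-KO (log2 1.73, adjusted p = 0.0068). The interaction was 4.45 (SE 0.60, edgeR adjusted p = 0.043). Over all other settings it lay between 3.44 and 4.85. The call was lost with limma-voom (adjusted p = 0.28), with a sex term (0.11), with the erythroid mean as covariate (0.58), and without WT-O2 mouse GSD405, KO-RA mouse GSD496, KO-RA mouse GSD497 or KO-O2 mouse GSD061 (0.11, 0.23, 0.31 and 0.17). The other 6 tested genes of the gluconeogenesis list had interactions between -0.14 and 0.70, none at an unadjusted p under 0.05.

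**Figure D2:**
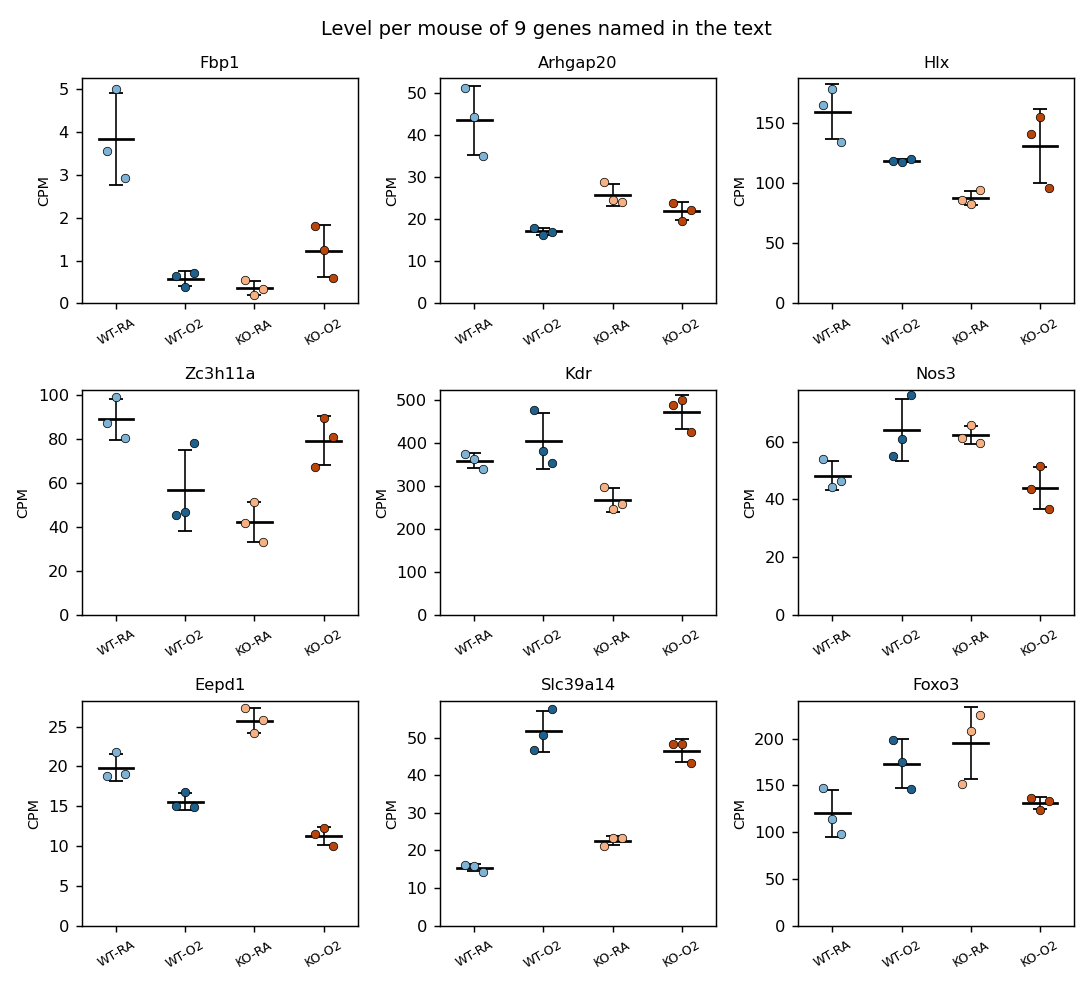
Level (CPM, axes from 0) of 9 genes in each of the 12 lungs, by group; bars are the mean and SD of 3 mice. Fbp1 to Kdr have interactions above 0 and Nos3 to Foxo3 below 0, and in Nos3 the GSDMD-KO groups lie above WT in room air and below WT in hyperoxia.

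The next genes by unadjusted p are given first for interactions above 0. Arhgap20, a GTPase-activating protein, measured 51.3, 44.5 and 35.1 CPM in WT-RA lungs, 18.04, 16.4 and 17.1 in WT-O2, 28.9, 24.6 and 24.1 in KO-RA and 24.04, 19.6 and 22.4 in KO-O2. The 2 room-air groups did not overlap and neither did the 2 hyperoxia groups, with WT the higher in room air and the lower in hyperoxia. Hyperoxia lowered Arhgap20 in WT (log2 -1.34, adjusted p = 1.8e-06), and the response in GSDMD-KO was -0.23. Its interaction was 1.11 (SE 0.18, edgeR adjusted p = 0.19), and DESeq2 called it. Hlx, a homeobox transcription factor of mesenchyme and blood cells, measured 166, 179 and 134 CPM in WT-RA lungs, 119, 118 and 120 in WT-O2, 85.9, 82.9 and 94.7 in KO-RA and 141, 156 and 96.4 in KO-O2. The 3 KO-RA lungs were the lowest 3 of the 12, and in hyperoxia the genotypes overlapped. Its responses in log2 were -0.43 in WT and 0.58 in GSDMD-KO, and its interaction was 1.00 (SE 0.21, edgeR adjusted p = 0.28). Epha4, an ephrin receptor, had responses of -0.36 in WT and 0.38 in GSDMD-KO and an interaction of 0.74 (SE 0.16, edgeR adjusted p = 0.28). Zc3h11a, a zinc finger protein linked to mRNA export, measured 87.3, 99.3 and 80.6 CPM in WT-RA lungs, 45.4, 46.7 and 78.1 in WT-O2, 41.9, 51.5 and 33.3 in KO-RA and 67.4, 89.5 and 81.1 in KO-O2. Its transcripts share sequence with Zbed6, which lies inside it, so its estimates are uncertain. The interaction of Zc3h11a was 1.56 (SE 0.31, edgeR adjusted p = 0.28).

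The remaining genes of this direction were Iigp1, described with the interferon genes, Fam69a, Mcc and the predicted genes Gm9747 and Gm20716. Mcc, a regulator of Wnt signaling and migration, had an interaction of 0.54 (SE 0.12, edgeR adjusted p = 0.28). Gm9747 had the largest value of these, 1.55 (SE 0.32, edgeR adjusted p = 0.28), with 17.6, 17.5 and 25.5 CPM in WT-RA lungs, 3.38, 7.33 and 5.47 in WT-O2, 12.1, 11.4 and 13.9 in KO-RA and 9.69, 8.67 and 10.9 in KO-O2. No GSDMD-KO lung in hyperoxia fell within the WT-O2 range.

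The genes with the smallest p and an interaction below 0 follow. Nos3, the endothelial nitric oxide synthase, measured 53.9, 44.4 and 46.5 CPM in WT-RA lungs, 55.2, 61.04 and 76.1 in WT-O2, 61.4, 65.7 and 59.6 in KO-RA and 43.7, 51.4 and 36.8 in KO-O2. Every KO-RA lung lay above every WT-RA lung, and every KO-O2 lung lay below every WT-O2 lung. Its responses in log2 were 0.41 in WT and -0.50 in GSDMD-KO, neither reaching a 2-fold change, and its interaction was -0.91 (SE 0.18, edgeR adjusted p = 0.28). Eepd1, an endonuclease-related protein, measured 18.7, 21.8 and 18.99 CPM in WT-RA lungs, 15, 16.8 and 14.9 in WT-O2, 27.4, 24.1 and 25.8 in KO-RA and 11.6, 12.2 and 10.1 in KO-O2 and showed the same crossing. Hyperoxia lowered Eepd1 in GSDMD-KO (log2 -1.19, adjusted p = 9.0e-07) and its WT response was -0.35. Slc39a14, a zinc and iron importer, measured 16.1, 15.9 and 14.3 CPM in WT-RA lungs, 46.8, 50.7 and 57.6 in WT-O2, 21.2, 23.3 and 23.2 in KO-RA and 48.4, 48.2 and 43.1 in KO-O2. Hyperoxia raised it in both genotypes, with responses of 1.74 in WT and 1.04 in GSDMD-KO and an interaction of -0.70 (SE 0.13, edgeR adjusted p = 0.28). Its room-air groups did not overlap, with GSDMD-KO the higher, while the hyperoxia groups did.

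Foxo3, a transcription factor that Akt keeps out of the nucleus, measured 148, 115 and 97.9 CPM in WT-RA lungs, 199, 176 and 146 in WT-O2, 152, 208 and 226 in KO-RA and 136, 124 and 133 in KO-O2, with an interaction of -1.10 (SE 0.24, edgeR adjusted p = 0.28). KO-RA lay above WT-RA and KO-O2 below WT-O2 in every mouse. Limk1, a kinase that stabilizes actin filaments, had responses of -0.26 in WT and -0.81 in GSDMD-KO and an interaction of -0.55 (SE 0.11, edgeR adjusted p = 0.28). Baiap2, an adaptor protein of the actin cytoskeleton, had responses of 0.27 in WT and -0.37 in GSDMD-KO and an interaction of -0.64 (SE 0.13, edgeR adjusted p = 0.28). Galnt2, which starts O-linked glycosylation, measured 64.4, 56.2 and 62.6 CPM in WT-RA lungs, 122, 94.6 and 133 in WT-O2, 80.6, 79.6 and 81.6 in KO-RA and 81.8, 99.1 and 85.5 in KO-O2, and hyperoxia moved it by 0.93 in WT and 0.14 in GSDMD-KO on the log2 scale. Chd9, a chromatin remodeler, and Tbx1, a T-box transcription factor of pharyngeal and vascular development, had interactions of -0.64 (SE 0.13, edgeR adjusted p = 0.28) and -0.83 (SE 0.18, edgeR adjusted p = 0.28). Tsku, a secreted inhibitor of several growth factor pathways, rose in WT (log2 1.61, adjusted p = 4.4e-08) and its GSDMD-KO response was 0.95. Vmn1r88, a vomeronasal receptor gene of a large family with similar copies, had 4.01, 3.6 and 3.58 CPM in WT-RA lungs, 9.65, 9.36 and 6.15 in WT-O2, 2.84, 3.34 and 3.87 in KO-RA and 3.53, 2.797 and 3.21 in KO-O2, which is uncertain for that reason. DESeq2 called Foxo3 and all 20 genes with the smallest edgeR p, 10 above and 10 below 0, at adjusted p-values of at most 0.02.

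Where the genotypes differed can be read from the groups. The interaction equals the genotype difference in hyperoxia minus that in room air, and the quantities share the same 12 lungs, so what follows describes values and is not a further test. Of the 1130 genes at an unadjusted p under 0.05, 691 (61.2%) had the larger genotype difference in room air, against 53.7% of all tested genes. The median absolute genotype difference of the 1130 was 0.32 in room air and 0.23 in hyperoxia on the log2 scale, and over all tested genes 0.12 and 0.10. The genotype difference pointed opposite ways at the 2 oxygen levels in 973 of them (86.1%), against 45.9% of all genes, a share that choosing genes by their interaction raises by itself. The hyperoxia responses of the genotypes had opposite signs in 426 (37.7%, all genes 16.9%). A gene called for hyperoxia in both genotypes in opposite directions occurred in 2 cases, Fbp1 and Gm20671. Gm20671 is a predicted gene with at most 1 count in any WT-RA lung, for which no fold is given.

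Interferon-response genes formed the list with the highest share of nominal interactions. Interferon-gamma, made by lymphocytes, induces guanylate-binding proteins, immunity-related GTPases and genes of antigen processing, and type I interferons induce antiviral genes. Both programs share a DNA element, the interferon-stimulated response element, in many of their promoters. The promoters of 3 of the 5 named interferon genes looked up (Irgm1, Rsad2, Isg15, Cd274 and Ifi44) held it, and 70 bases of each, upstream of the start, are shown because these genes had similar interaction signs. The element was searched on both strands as GAAANNGAAA, and its matches are in capitals (a match to the opposite strand reads as its reverse complement). The sequences are from RefSeq, build GRCm38.p6, read 5′ to 3′ along the gene.
Irgm1, chr11:48871421-48871490, minus strand: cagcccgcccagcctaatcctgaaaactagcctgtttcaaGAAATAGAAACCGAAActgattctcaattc
Rsad2, chr12:26456533-26456602, minus strand: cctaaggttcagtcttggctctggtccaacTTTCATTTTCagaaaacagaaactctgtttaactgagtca
Isg15, chr4:156200845-156200914, minus strand: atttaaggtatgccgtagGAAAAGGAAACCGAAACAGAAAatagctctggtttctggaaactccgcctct
In Isg15 3 matches overlap and in Irgm1 2 do, and Rsad2 has 1, on the opposite strand. In windows of 250 bases before to 50 after the start, the element was found for 10 of the 17 interferon-gamma genes that have a window (58.8%), 9 of 14 type I genes (64.3%), 0 of 17 erythroid genes and 487 of 12481 tested genes (3.9%). The gamma-activated site TTCNNNGAA was found for 8 of 17 (47.1%), 3 of 14 (21.4%), 0 of 17 and 8.65%. The letters alone do not show that a factor binds there. The interferon lists name interferon-response genes, so a high share with the element follows from how they were chosen. It does not bear on the interaction.

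All 25 interferon-gamma genes were tested, and 23 had an interaction above 0, with a median of 0.59, against 50.6% of all tested genes above 0 and a median of 0.00. At an unadjusted p under 0.05, 16 of the 25 lay above 0 (background 3.33%) and 0 below. EdgeR called 0 and DESeq2 2 (background 0.757%), Iigp1 and Cd274. The genotypes differed in room air, where 24 of the 25 were lower in GSDMD-KO (median -0.52), 11 of them with no overlap between the groups (background of KO-RA below WT-RA with no overlap 7.9%). In hyperoxia 13 were lower and 12 higher, with a median of 0.00 and no member without overlap. The median response was -0.51 in WT and -0.06 in GSDMD-KO. Iigp1, an immunity-related GTPase, measured 54.6, 49.6 and 52.7 CPM in WT-RA lungs, 85.4, 81.7 and 75.1 in WT-O2, 39.8, 30.3 and 38.3 in KO-RA and 85.4, 91.3 and 84.7 in KO-O2. The 3 KO-RA lungs were the lowest, and the hyperoxia groups had nearly the same levels. Hyperoxia raised Iigp1 in GSDMD-KO (log2 1.27, adjusted p = 2.5e-07), the WT response was 0.63, and the interaction was 0.64 (SE 0.14, edgeR adjusted p = 0.28). Cd274, the checkpoint ligand PD-L1, measured 11.4, 12.1 and 8.46 CPM in WT-RA lungs, 11.4, 11.3 and 11.8 in WT-O2, 7.24, 5.48 and 6.68 in KO-RA and 10.9, 14.4 and 12.2 in KO-O2, with an interaction of 0.84 (SE 0.22, edgeR adjusted p = 0.39). Irgm1, a regulatory GTPase, had responses of -0.51 in WT and 0.08 in GSDMD-KO and an interaction of 0.59 (SE 0.18, edgeR adjusted p = 0.5). Irf1 and Ciita, transcription factors of the pathway, had interactions of 0.04 and -0.08.

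**Figure D3:**
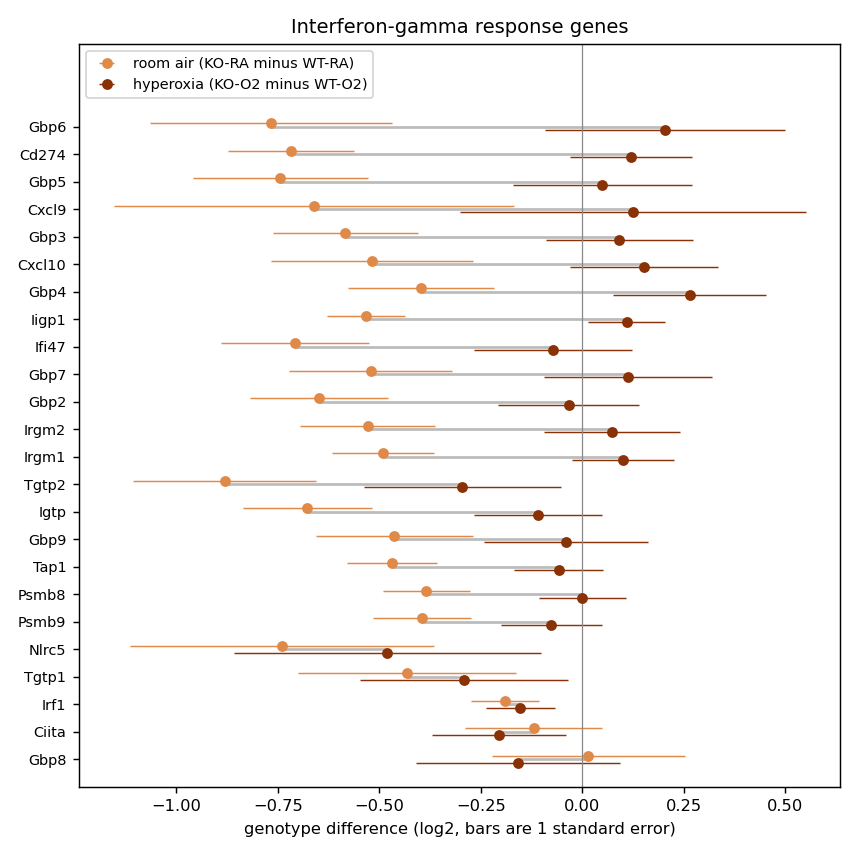
Genotype difference (log2, GSDMD-KO minus WT, bars 1 standard error) of 24 of the 25 interferon-gamma response genes in room air and in hyperoxia, ordered by interaction. In room air 23 of the 24 lie below 0, and in hyperoxia 13 do.

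The summed level of these 25 genes was 634.5, 867.3 and 945.5 CPM in WT-RA, 520.9 to 600.9 in WT-O2, 569.4 to 605.5 in KO-RA and 503.2 to 569 in KO-O2, so WT-RA was the high group and its lowest mouse, GSD400, lay near the rest. The macrophage sum split the same mice, with 3755, 3582 and 2645 CPM in WT-RA mice GSD398, GSD399 and GSD400 and 1896 to 2835 in the other 9 lungs, and its part in the interferon values was not tested. The median interaction of the 25 genes was 0.42 without WT-RA mouse GSD398 and 0.73 without GSD400, and stayed between these under every other setting tried. Type I interferon genes had the same sign, 20 of 21 above 0 with a median of 0.41. At an unadjusted p under 0.05 there were 8, all above 0 (background 3.33%). The median genotype difference of the 21 genes was -0.46 in room air and -0.07 in hyperoxia. Isg15, a ubiquitin-like protein, measured 9.703, 8.88 and 6.295 CPM in WT-RA lungs, 8.898, 9.05 and 8.07 in WT-O2, 5.71, 5.76 and 6.61 in KO-RA and 10.9, 11.4 and 8.43 in KO-O2, with an interaction of 0.70 (SE 0.23, edgeR adjusted p = 0.56). Rsad2, the antiviral enzyme viperin, departed from the list. It measured 14.97, 13.5 and 14.3 CPM in WT-RA lungs, 4.88, 4.37 and 4.56 in WT-O2, 16.1, 13.5 and 17.1 in KO-RA and 20.2, 20.5 and 6.46 in KO-O2, a pattern with KO-O2 high in 2 of 3 mice, and its interaction was 1.65 (SE 0.47, edgeR adjusted p = 0.5). With the erythroid mean as covariate its interaction was 0.35. The 11 MHC class II genes gave 2 above 0 and a median of -0.16. In whole lung RNA, fewer cells of a type and less RNA per cell cannot be told apart, here and in what follows.

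Erythroid genes had the largest median interaction of any list with more than 5 tested members. Of the 22 tested, 19 were above 0 with a median of 0.79. At an unadjusted p under 0.05 there were 9, all above 0 (background 3.33%). EdgeR called 0 and DESeq2 7 (background 0.757%). Hyperoxia lowered 15 of the 22 in WT (background 6.57%) and 6 in GSDMD-KO (background 6.03%). The genotypes differed in hyperoxia, where all 22 were higher in GSDMD-KO (median 1.57), 15 with no overlap (background of KO-O2 above WT-O2 with no overlap 6.36%), while the room-air median was 0.29. Alas2, the first enzyme of heme synthesis in red cells, measured 195, 183.2 and 215 CPM in WT-RA lungs, 35.6, 38.6 and 37.5 in WT-O2, 305, 232 and 181 in KO-RA and 325, 376 and 71.7 in KO-O2. Hyperoxia lowered it in WT (log2 -2.41, adjusted p = 0.0058), the GSDMD-KO response was 0.11, and the interaction was 2.52 (SE 0.71, edgeR adjusted p = 0.53). Bpgm, which makes the red cell metabolite 2,3-bisphosphoglycerate, had responses of -0.75 in WT and 0.26 in GSDMD-KO and an interaction of 1.01 (SE 0.31, edgeR adjusted p = 0.53). Slc4a1, the band 3 anion exchanger, measured 33.6, 24.4 and 42.3 CPM in WT-RA lungs, 6.92, 4.96 and 7.13 in WT-O2, 61.4, 48.6 and 47.8 in KO-RA and 40.8, 41.1 and 9.87 in KO-O2, with an interaction of 1.62 (SE 0.67, edgeR adjusted p = 0.71). The transcription factors Gata1 and Tal1 had interactions of 0.25 and 0.07, and Klf1 -1.42.

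The erythroid value rested on 2 mice. The summed level was 15960 to 18340 CPM in WT-RA, 3121 to 4331 in WT-O2 and 13270 to 27610 in KO-RA. In KO-O2 it was 25980 in GSD061, 28890 in GSD097 and 6331 in GSD493. The numbers of GSD061 and GSD097 lie apart from those of all other lungs, which run from GSD398 to GSD497. The labels do not say what the numbers stand for. Whatever they mark cannot be told apart from the split within KO-O2. Without GSD493 the median interaction was 1.17. Without GSD061 and GSD097, a setting chosen after seeing these values that leaves 1 KO-O2 lung assumed to vary like the other groups, the median was 0.04.

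**Figure D4:**
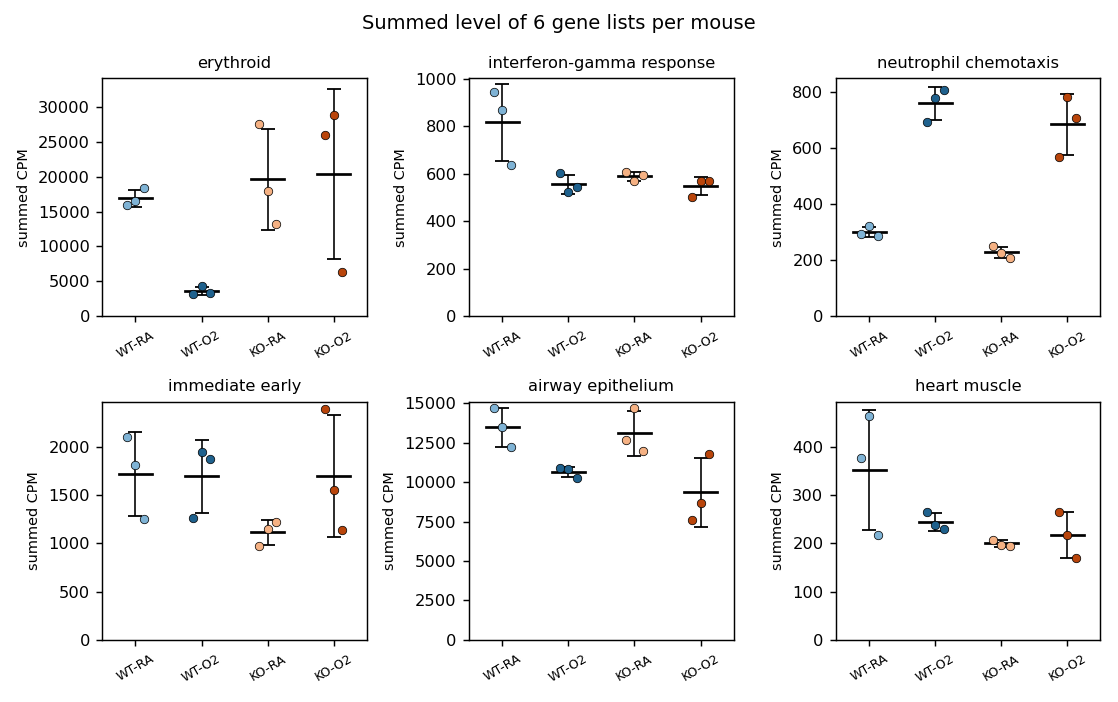
Summed level (CPM of the library total, axes from 0) of all members of 6 lists in each lung, by group, with the mean and SD of 3 mice. The erythroid sum is low in all 3 WT-O2 lungs and in 1 of 3 KO-O2 lungs, and the interferon-gamma sum is highest in 2 WT-RA lungs.

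Genes of inflammation followed in smaller numbers. Of 18 neutrophil chemotaxis genes 14 were above 0 with a median of 0.49. At an unadjusted p under 0.05 there were 6, Cxcl2, Il1b, Fpr1, Fpr2, Itgb2 and Cxcl5, all above 0 (background 3.33%). The median genotype difference of the 18 genes was -0.55 in room air and 0.02 in hyperoxia. The neutrophil-attracting chemokine Cxcl2 measured 0.1396, 0.269 and 0.172 CPM in WT-RA lungs, 0.614, 0.688 and 0.912 in WT-O2, 0.0342, 0 and 0.0678 in KO-RA and 1.09, 0.921 and 0.9701 in KO-O2, which is at most 2 counts in a KO-RA lung, so no fold is given against that group. Il1b, the interleukin released through gasdermin D pores, measured 4.92, 4.04 and 2.75 CPM in WT-RA lungs, 3.61, 3.89 and 2.195 in WT-O2, 1.78, 2.21 and 2.14 in KO-RA and 5.74, 3.19 and 2.64 in KO-O2, with an interaction of 1.19 (SE 0.43, edgeR adjusted p = 0.62). Fpr1, the formyl peptide receptor of neutrophils, fell in both genotypes, with responses of -2.06 in WT and -1.27 in GSDMD-KO. The neutrophil granule genes S100a8 and S100a9 had interactions of -0.09 and -0.47. The summed level of the list was 285.5 to 321.1 CPM in WT-RA and 208.6 to 250 in KO-RA, which did not overlap, and 694 to 806.1 in WT-O2 and 567.9 to 782 in KO-O2, which did.

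Of 20 inflammasome and pyroptosis genes 15 were above 0 with a median of 0.11. Besides Gsdmd, 4 had an unadjusted p under 0.05 (background 3.33% above 0), Il1b, Il18, Il1rn and Casp1. Their interactions were 1.19, 0.78, 0.54 and 0.73, and Gsdmd was the only one of the 5 below 0. Il18, the second cytokine of the pathway, measured 5.76, 5.28 and 5.68 CPM in WT-RA lungs, 3, 3.48 and 2.803 in WT-O2, 3.79, 4.62 and 3.87 in KO-RA and 2.94, 5.35 and 3.45 in KO-O2. The sensors Nlrp3 and Nlrc4, the adaptor Pycard and the related pore-former Gsdme had interactions of 0.07, 0.10, -0.01 and 0.01. Macrophage genes gave 13 of 20 above 0 and a median of 0.15, which was -0.02 without GSD061 and GSD097. Their interactions ran from -1.26 to 1.18. At an unadjusted p under 0.05, 3 lay above 0 (background 3.33%) and 1 below (background 3.39%). In GSDMD-KO 17 of the 20 were lower in room air and all 20 in hyperoxia, against 8429 and 8438 of 16819 tested genes. Marco, a scavenger receptor, rose in both genotypes, with responses of 1.297 in WT and 2.35 in GSDMD-KO and an interaction of 1.06 (SE 0.33, edgeR adjusted p = 0.53), and DESeq2 called it. It measured 13.3, 14.97 and 12.1 CPM in WT-RA lungs, 28.6, 28.4 and 42.4 in WT-O2, 6.12, 5.998 and 6.82 in KO-RA and 29.3, 44.8 and 22.6 in KO-O2, with KO-RA below WT-RA in every mouse. TNF and NF-kB signaling gave 18 of 25 above 0 (median 0.17, and -0.02 without GSD061 and GSD097), IL-17 signaling 5 of 13 (median -0.04) and complement 2 of 13 (median -0.09).

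Immediate early genes, which cells switch on within minutes of a stimulus, gave 15 of 16 above 0 with a median of 0.56. At an unadjusted p under 0.05 there were 3, all above 0 (background 3.33%). Fosb measured 16.4, 6.49 and 4.68 CPM in WT-RA lungs, 12.1, 13.6 and 12.6 in WT-O2, 3.28, 3.07 and 1.83 in KO-RA and 24.6, 11.6 and 14.4 in KO-O2. It rose in GSDMD-KO (log2 2.63, adjusted p = 0.0019), its WT response was 0.48, and the interaction was 2.15 (SE 0.65, edgeR adjusted p = 0.54). Nr4a1, an orphan nuclear receptor, measured 273, 158 and 68.5 CPM in WT-RA lungs, 127, 188 and 282 in WT-O2, 39.5, 37.6 and 58.7 in KO-RA and 367, 231 and 95.97 in KO-O2, with an interaction of 2.10 (SE 0.86, edgeR adjusted p = 0.71). Both spread widely within groups, and in room air KO-RA lay below WT-RA in every mouse. The median of the list was 0.13 without GSD061 and GSD097, 0.16 with the erythroid mean as covariate and 0.24 to 0.80 leaving out single mice. Glucocorticoid response genes pointed the other way, with 2 of 9 above 0 and a median of -0.69, which was -0.35 with the erythroid mean as covariate and -1.03 to -0.48 leaving out single mice. Zbtb16, a zinc finger factor induced by glucocorticoids, measured 64.7, 71.96 and 5.09 CPM in WT-RA lungs, 12.2, 16.7 and 11.8 in WT-O2, 106, 138 and 182 in KO-RA and 2.13, 3.05 and 3.51 in KO-O2. It fell in GSDMD-KO (log2 -5.61, adjusted p = 0.0015), and its interaction was -3.81 (SE 1.14, edgeR adjusted p = 0.56). WT-RA mouse GSD400 was low for it, and leaving that mouse out gave -3.28 (adjusted p = 0.028). Fkbp5, a chaperone of the glucocorticoid receptor, had responses of 0.18 in WT and -1.59 in GSDMD-KO and an interaction of -1.77 (SE 0.53, edgeR adjusted p = 0.54).

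The lists of vessel and growth pathway genes had small medians. Of 23 genes of the endothelium and vascular permeability 16 were above 0 with a median of 0.11. At an unadjusted p under 0.05 there were 3, Nos3 below 0 (background 3.39%) and Kdr and Ednrb above (background 3.33%). Kdr, the main receptor for vascular endothelial growth factor, measured 374, 363 and 341 CPM in WT-RA lungs, 478, 381 and 354 in WT-O2, 299, 246 and 258 in KO-RA and 489.7, 499.8 and 427 in KO-O2. The 3 KO-RA lungs were the lowest of all, and the hyperoxia groups overlapped. Its responses were 0.17 in WT and 0.82 in GSDMD-KO, and its interaction was 0.65 (SE 0.16, edgeR adjusted p = 0.39). Ednrb, an endothelin receptor, fell in both genotypes, with responses of -2.004 in WT and -1.51 in GSDMD-KO. Pecam1, Cdh5 and Vegfa had interactions of 0.09, 0.07 and -0.08. Wnt signaling gave 23 of 33 above 0 (median 0.16, and 0.00 with the erythroid mean as covariate), lung morphogenesis 16 of 25 (0.18), PI3K-Akt signaling 13 of 26 (0.00) and cAMP signaling 13 of 26 (0.00). Rspo2, an amplifier of Wnt signaling, fell in WT (log2 -1.49, adjusted p = 0.0032), its GSDMD-KO response was 0.43, and the interaction was 1.92 (SE 0.48, edgeR adjusted p = 0.39). Hoxa5, a patterning factor of the lung, fell in both, with responses of -1.83 in WT and -1.27 in GSDMD-KO and an interaction of 0.56 (SE 0.18, edgeR adjusted p = 0.53). Adcy8, an adenylyl cyclase, fell in both, with responses of -4.29 in WT and -3.66 in GSDMD-KO and an interaction of 0.63 (SE 0.18, edgeR adjusted p = 0.42).

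Airway epithelium genes gave 2 of 13 above 0 with a median of -0.43. At an unadjusted p under 0.05 there were 3, all below 0 (background 3.39%). The summed level was 7596, 8681 and 11790 CPM in KO-O2 mice GSD061, GSD097 and GSD493, so GSD493 stood apart here as for the erythroid genes, and 10280 to 10880 in WT-O2. The median was -0.095 with the erythroid mean as covariate and -0.16 without GSD061 and GSD097. Muc5b, the airway mucin, measured 134, 220.1 and 78.9 CPM in WT-RA lungs, 57.5, 36.8 and 90.7 in WT-O2, 86.9, 205 and 162 in KO-RA and 16.1, 18.2 and 15.9 in KO-O2. It fell in GSDMD-KO (log2 -3.18, adjusted p = 0.0012), its WT response was -1.23, and the interaction was -1.95 (SE 0.66, edgeR adjusted p = 0.63). Foxj1, the master factor of ciliated cells, and Cyp2f2, a club cell enzyme, had interactions of -0.49 and -0.43, and of -0.15 and -0.095 with that covariate. DNA replication and mitosis genes gave 4 of 24 above 0 with a median of -0.20, which was -0.089 without WT-RA mouse GSD398, -0.42 without GSD400 and -0.50 with the erythroid mean as covariate. Aurkb, a mitotic kinase, measured 4.85, 5.08 and 7.19 CPM in WT-RA lungs, 10.9, 9.53 and 10.6 in WT-O2, 10.7, 7.34 and 7.9 in KO-RA and 9.24, 10.8 and 9.47 in KO-O2, with an interaction of -0.67 (SE 0.24, edgeR adjusted p = 0.61). The alveolar lists had medians of -0.02 (type 2) and 0.11 (type 1), oxidative stress genes -0.04, p53 targets 0.03, matrix and mesenchyme genes -0.13 and metallopeptidases and their inhibitors -0.08, close to the 0.00 of all tested genes.

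**Figure D5:**
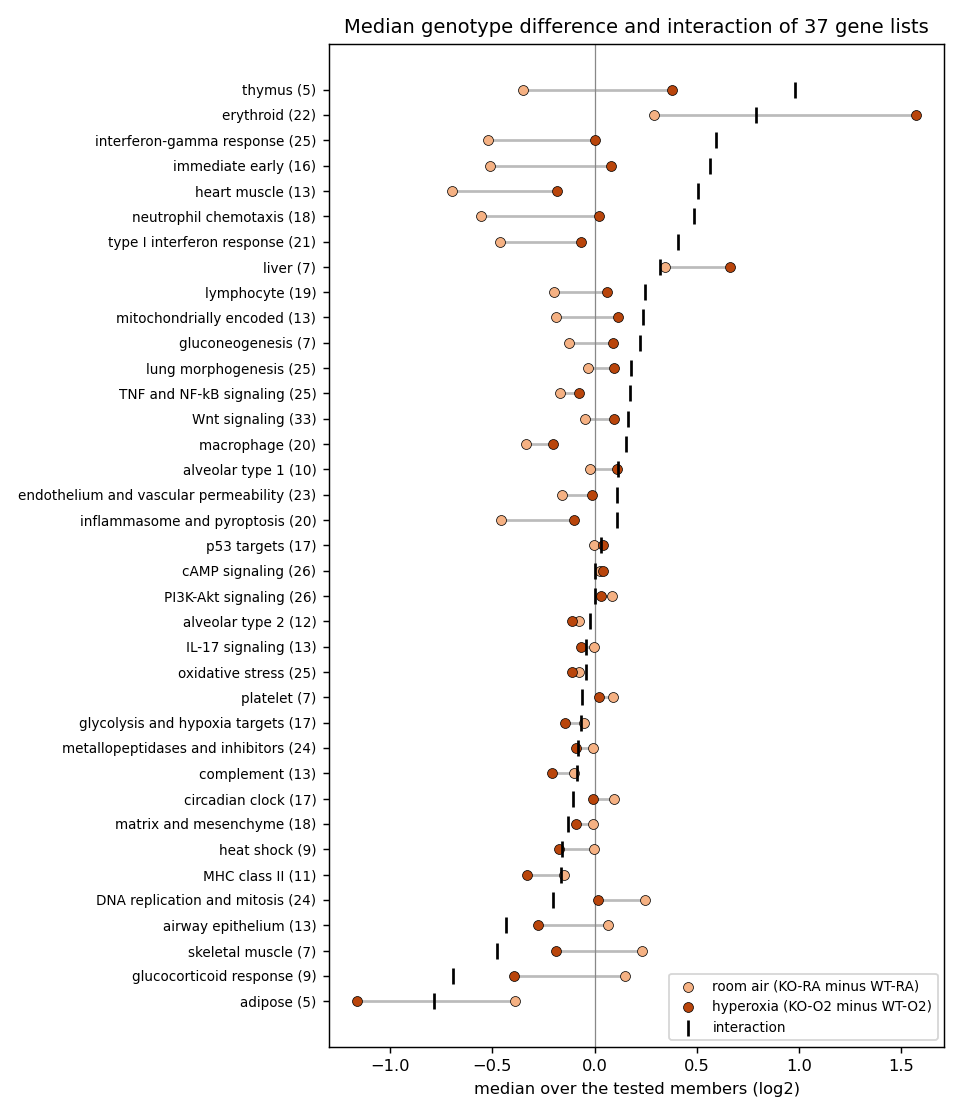
Median genotype difference (log2) over the tested members of 37 lists in room air and in hyperoxia, and median interaction, ordered by interaction; the number of tested members is in brackets. The interferon, neutrophil and immediate early lists lie below 0 in room air and near 0 in hyperoxia, and the erythroid list lies farthest above 0 in hyperoxia.

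Markers of other tissues that whole lungs can carry varied too. Heart muscle genes gave 11 of 13 above 0 with a median of 0.50, and their summed level was 216.2, 376.5 and 463.1 CPM in WT-RA against 170.4 to 264.8 in the other groups. WT-RA mice GSD398 and GSD399 lay above GSD400 in the heart muscle, macrophage, interferon-gamma and immediate early sums alike, and the part of heart tissue in these results was not tested. The 5 tested thymus genes were all above 0 (median 0.98), and the median was 0.13 without KO-O2 mouse GSD097 and -0.21 with the erythroid mean as covariate. The liver list had a median of 0.32, and of -0.72 without KO-O2 mouse GSD061. The 5 adipose genes were all below 0 (median -0.78), and their median was -2.84 without WT-RA mouse GSD399, which had 27.56 CPM against 1.809 to 11.5 in the other 11 lungs, and -0.35 without GSD400. Platelet genes had a median of -0.06, lymphocyte genes 0.24, skeletal muscle genes -0.48, mitochondrially encoded genes 0.24, circadian clock genes -0.10, heat shock genes -0.16, and glycolysis and hypoxia targets -0.07.

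The lung genes of a qRT-PCR panel, 6 in all, were looked up, and the panel was chosen on these mice. Alas2, Slc4a1 and Pik3cg, a kinase subunit of leukocytes, had unadjusted p under 0.05, all above 0 (background 3.33%). EdgeR called 0 and DESeq2 1 (background 0.757%), Alas2. With the erythroid mean as covariate the interactions of Alas2, Slc4a1 and Pik3cg were 0.50, -0.26 and 0.37. Pik3cg measured 12.04, 11.9 and 9.74 CPM in WT-RA lungs, 15.5, 11.3 and 11.8 in WT-O2, 9.396, 7.69 and 7.12 in KO-RA and 12.6, 13.5 and 12.3 in KO-O2, with an interaction of 0.46 (SE 0.21, edgeR adjusted p = 0.71). Trem2, a macrophage receptor, rose in both genotypes, with responses of 1.59 in WT and 1.71 in GSDMD-KO and an interaction of 0.11 (SE 0.21, edgeR adjusted p = 0.97). Mif, a macrophage cytokine, also rose in both, with responses of 1.54 in WT and 1.55 in GSDMD-KO and an interaction of 0.02 (SE 0.26, edgeR adjusted p = 1). Edn1, the vasoconstrictor endothelin-1, measured 30.2, 30.7 and 32.8 CPM in WT-RA lungs, 50.6, 57.3 and 62.7 in WT-O2, 25.5, 43.1 and 47.1 in KO-RA and 57.2, 60.8 and 36.03 in KO-O2, with an interaction of -0.45 (SE 0.32, edgeR adjusted p = 0.88).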

How the data were processed

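Whole lung RNA of 12 mice (3 per group) was analysed, and the retina samples were not used here. The authors aligned reads to transcripts with kallisto, summed them per gene with tximport and deposited a table of expected counts (estimated counts), not divided by library size. Kallisto shares reads between similar transcripts, so near-identical genes such as the hemoglobins are uncertain. The labels name mm10 and the paper's methods name another build, so symbols were matched by gene identifier (35816 of 36109). All 12 columns were mapped by mouse name.

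Counts were rounded and fitted in edgeR 4.0.16 (R 4.3.3) with 1 term per group, TMM normalization, filterByExpr by group and a robust quasi-likelihood F-test, leaving 16819 genes. Adjustment was by Benjamini-Hochberg over all of them. The interaction was called at an adjusted p under 0.1, as in the study's threshold, while hyperoxia calls also needed a 2-fold change and an unadjusted p under 0.05. Standard errors are the absolute log2 change over the square root of F. Levels of single genes by mouse are CPM with TMM factors. Summed list levels take every listed gene, tested or not, as CPM of the library total. Alternatives were RLE normalization, other filters, DESeq2 1.42.0, limma-voom 3.58.1, covariates and leaving out mice. The erythroid covariate was made from the erythroid genes and differed between the groups. A fit with it therefore takes up part of the interaction, in those genes above all. The script was tested on simulated data.

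Named genes were called genes, the 10 with the smallest p in each direction at a mean of at least 1 CPM, genes with opposite hyperoxia calls, up to 3 per list, Gsdmd and the 6 qRT-PCR genes. The 39 lists were written by hand. Lists and members were chosen with earlier results of these data known, so they are described by counts and medians without a test. Totals of 28763661 to 29604254 per lung make counting error small above a few CPM, and the spread between 3 mice limits the rest. P-values weigh a difference against the spread between these mice, which edgeR moderates across genes. The labels' treatment text describes another experiment and was not used. Values of some list members are not reported here, although the list counts include them.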

Additional observations from a re-analysis of the deposited data

Results flagged for a closer look

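The interaction of Fbp1 was singled out because the hyperoxia effects of the 2 genotypes differed by a test of the difference itself, with a log2 interaction of 4.45 and an edgeR adjusted p of 0.043. Its response was -2.72 in WT and 1.73 in GSDMD-KO on the log2 scale, and all 3 KO-RA lungs lay below all 3 WT-RA lungs. Groups of 3 mice were too small for a test of single outlying mice.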

How the results depend on the processing

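The number of interaction calls (1) was 2 without a filter on low counts. It was 110 with DESeq2's Wald test and with its likelihood ratio test against genotype and exposure. Limma-voom, a sex term and the erythroid mean as covariate gave 0 (1126, 1102 and 931 genes at an unadjusted p under 0.05). Leaving out single mice gave 0 to 45. DESeq2's likelihood ratio test against exposure alone gave 479 genes. It tests the genotype difference and the interaction together, so these are not interaction calls. Without the fold threshold hyperoxia calls were 8268 in WT and 7857 in GSDMD-KO. The share of WT calls with a smaller response in GSDMD-KO (70.9%) was 73.3% without a filter, 83.2% with the erythroid covariate and 67.9% to 75.9% leaving out single mice. The share of GSDMD-KO calls with a smaller response in WT (57.9%) was 61.6% without a filter, 54.3% at a mean of at least 1 CPM, 43.8% with the erythroid covariate and 54.7% to 64.4% leaving out single mice. The cause was not tested.

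Some uncalled interactions changed sign. With the erythroid covariate these were Pcx 0.039, Rag1 -0.92, Cd8b1 -0.30, Alb -0.86, Ahsg -1.78, Gp1ba -0.046, Slc4a1 -0.26 and Mif -0.059. Without GSD061 and GSD097 they were Rag1 -1.26, Cd8b1 -0.12, Alb -0.81, Ahsg -1.68, Gp1ba -0.12 and Slc4a1 -0.016. The Y-linked Ddx3y, Eif2s3y and Uty were 1.03, 1.09 and 0.67 with limma-voom and 0.93, 1.29 and 0.61 with a sex term. Leaving out single mice, C1s1 ranged from -0.20 to 0.028, Acta1 from -3.04 to 0.016, Rag1 from -0.37 to 2.89, Alb from -0.64 to 4.44, Ahsg from -0.72 to 4.62, Gp1ba from -0.038 to 0.34, Ddx3y from -6.40 to 1.13, Eif2s3y from -5.25 to 1.96, Uty from -4.16 to 1.61, Trem2 from -0.0088 to 0.21 and Mif from -0.23 to 0.16. Of the other values for named genes, 2730 kept their direction and their side of the threshold, 54 were newly called and 8, all of Fbp1, lost the call. No paired analysis was possible because the mice carry no shared replicate numbers.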
